A study of Mus musculus with 9 samples.

Results

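The 44 genes described here encode the machinery that copies DNA in S phase, and they were chosen by name from the 56748 gene identifiers in a count table of sorted mouse lung endothelial cells. They cover origin licensing (10 genes), activation of the replicative helicase (6), polymerases and primase (5), the sliding clamp and lagging strand (7), nucleotide supply (6), copying of chromatin (4), and S phase control and repair (6). All 44 were found by their Ensembl identifier, and all 44 were among the 19486 genes with enough counts to be tested. RNA was measured in 9 libraries, 3 each from Notch1f/f, DNMAML and WT mice. All were C57BL/6, adult at 6 weeks, and the sort kept lung cells with CD31 signal and without DAPI or CD45 signal. By convention, f/f stands for 2 floxed copies of a gene, here that of the receptor Notch1, and DNMAML for a truncated Mastermind-like protein that acts in a dominant-negative way on transcription by all Notch receptors. The sources used here do not give the recombinase, the cells in which it acts or any inducing agent. They also do not say whether a library came from 1 mouse or a pool, and p-values therefore cover only the spread among these libraries, which may be technical in part. By Y-linked genes each genotype held libraries of both sexes, so its 3 libraries were not all from 1 mouse. Libraries of the same sex could still share a source.

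DNA is copied in steps that fall to different members of this group. In G1 the origin recognition complex, Cdc6 and Cdt1 load the Mcm2 to Mcm7 ring on DNA; in S phase Cdc45 and the GINS complex turn that ring into an active helicase, and primase and the polymerases follow. Transcription of many of these genes is driven by E2F factors once cyclin-dependent kinases inactivate the retinoblastoma protein. Endothelial cells of the adult lung are mostly quiescent, and Notch signalling is known as a brake on their cycling.

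Between 15522100 and 27842496 reads per library were assigned to genes. Notch1 was at 70.8, 29.5 and 176 CPM (CPM, counts scaled by library size) in Notch1f/f libraries, 679, 872 and 777 CPM in DNMAML, and 766, 909 and 811 CPM in WT, so the lowest values carry the Notch1f/f label. Of 10 endothelial markers, Pecam1 and Cdh5 were high in each library, at 3410 CPM or more and 5370 CPM or more. The others are described below with the markers of other cells. By their Y-linked genes, Notch1f/f replicate 1, DNMAML replicates 1 and 3 and WT replicate 2 were male, and the other libraries were female.

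Summed over the 44 genes, the level was 496, 954 and 797 CPM in the Notch1f/f libraries, 690, 782 and 643 CPM in DNMAML, and 502, 490 and 515 CPM in WT. The 3 WT libraries lay within a narrow band, each DNMAML library lay above it, and Notch1f/f replicate 1 lay inside it while replicates 2 and 3 were well above. Notch1f/f replicate 1 was the lowest of its genotype for 36 of the 44 genes. Against the mean of WT, the median member differed by 0.25, 1.00 and 0.65 on a log2(CPM + 0.5) scale in Notch1f/f replicates 1, 2 and 3, and by 0.53, 0.79 and 0.37 in DNMAML replicates 1, 2 and 3. Of the 44 genes, 22, 39 and 35 were above every WT library in these Notch1f/f libraries, and 32, 34 and 29 in these DNMAML libraries. In RNA from a whole sorted population, more cells in S phase and more RNA per cell cannot be told apart.

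**Figure D1:**
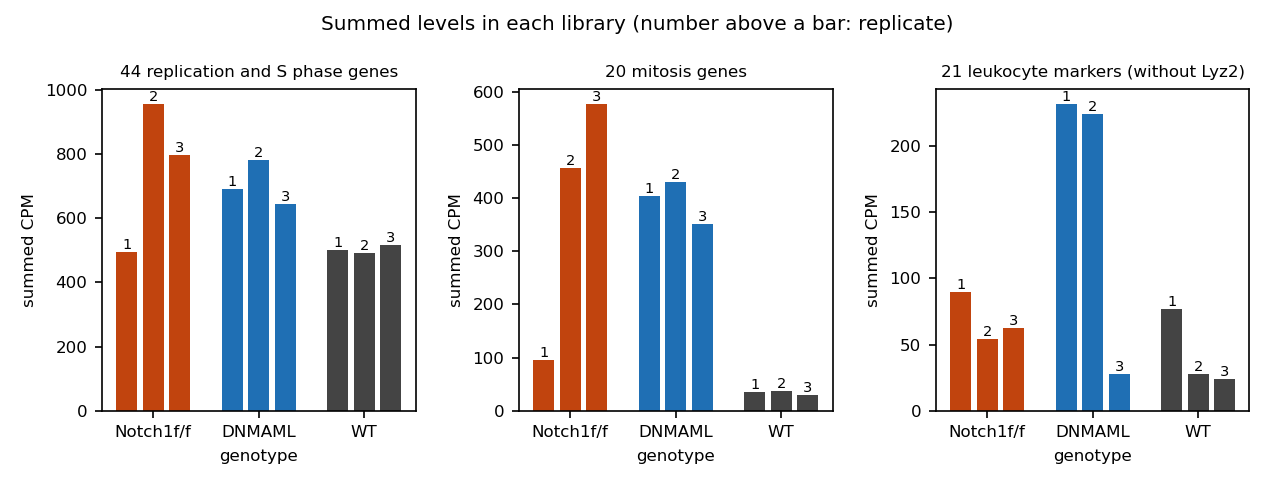
Summed CPM of the 44 replication and S phase genes, of 20 mitosis genes and of 21 leukocyte markers (without Lyz2) in each library, with the replicate number above each bar. Notch1f/f replicate 1 had 496 CPM of the 44 genes, within the WT range of 490 to 515 CPM, and the leukocyte markers reached 231 and 224 CPM in DNMAML replicates 1 and 2, against 23.8 to 89.8 CPM in the other libraries.

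Compared with WT, 4 of the 44 genes rose in Notch1f/f libraries and 0 fell (edgeR's quasi-likelihood F test at a Benjamini-Hochberg adjusted p below 0.05), where 0.513% of all genes tested rose. These 4 were Cdc6, Pole, Rrm2 and Dtl. The median log2 difference of the 44 genes was 0.81, with 41 above 0, against a median of 0.02 and 51.7% above 0 over all genes tested. In 22 of the 44 every Notch1f/f library was above every WT library, which held for 8.5% of all genes, and in 0 every library was below. At an unadjusted p below 0.05, 21 of the 44 differed, against 13.4% of all genes. DESeq2 called 14 higher (2.6% of all genes). With the replicate number as a block in these 6 libraries, Dtl alone rose, by 4.66 (SE 0.73, adjusted p = 0.0415; 0.276% of all genes). Without Notch1f/f replicate 1, 15 rose (1.81% of all genes). Without replicate 2, or without any one of the 3 WT libraries, 0 of the 44 passed, where 8 to 25 of all genes rose.

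For DNMAML against WT, 0 of the 44 passed in the fit to all 9 libraries, where 0.00513% of all genes rose, and 18 had an unadjusted p below 0.05, against 5.97% of all genes. Same-numbered DNMAML and WT libraries deviated together. The labels state no pairing, and this one was chosen from these same counts, so calls with the block rest on that choice. With that number as a block in these 6 libraries 12 of the 44 rose and 0 fell, where 1.17% of all genes rose. The 2 libraries of each pair differed in sex, so a difference within a pair is also one between sexes. In the same fit 4 of the leukocyte markers rose (Ptprc, Tyrobp, Ccr2 and Il1b). The 12 were Mcm2, Mcm5, Mcm10, Cdc6, Pole, Rrm2, Uhrf1, Dtl, E2f1, E2f8, Clspn and Brca1, with Benjamini-Hochberg adjusted p between 0.00333 for Pole and 0.0496 for Cdc6. DESeq2 called 10 of the 44 higher without a block (0.862% of all genes), and edgeR in these 6 libraries without a block called 5 (0.359%). In the fit to all 9 libraries the median log2 difference was 0.68, with 39 of the 44 above 0, against a median of 0.01 and 51.1% over all genes. In 23 of the 44 every DNMAML library was above every WT library, against 7.58% of all genes. Both comparisons use the same WT libraries.

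**Figure D2:**
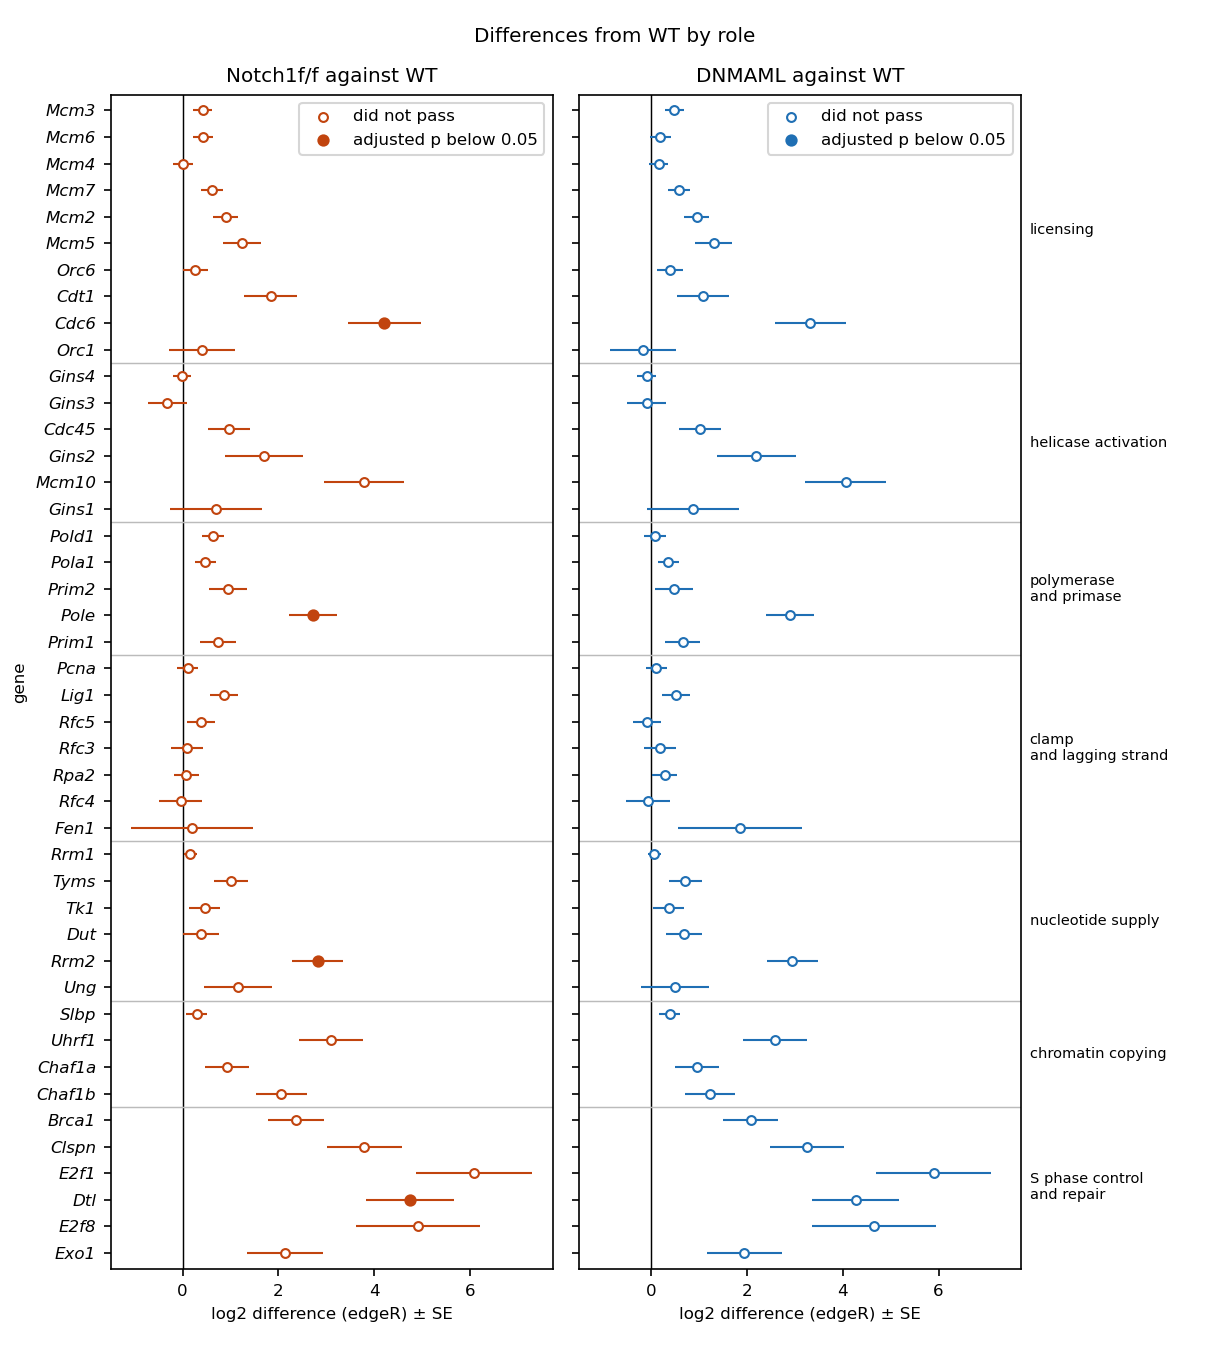
Log2 difference from WT for each of the 44 genes with its SE (edgeR, 3 libraries per genotype), grouped by role; filled points passed at an adjusted p below 0.05. The filled points are Cdc6, Pole, Rrm2 and Dtl in Notch1f/f; the widest differences are in S phase control and repair, up to 6.09 for E2f1.

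Among the 10 licensing genes Cdc6 alone rose in Notch1f/f without the block, and 0 passed in DNMAML. With the replicate block Mcm2, Mcm5 and Cdc6 rose in DNMAML. Cdc6 (ENSMUSG00000017499, chromosome 11, 98798627 to 98814766, GRCm39), the ATPase that joins the origin recognition complex to load Mcm rings, was at 1.34, 6.91 and 5.41 CPM in Notch1f/f libraries, 1.92, 3.70 and 1.75 CPM in DNMAML, and 0.312, 0.256 and 0.153 CPM in WT. Every library of both genotypes was above all WT libraries, in which Cdc6 rested on only 6, 4 and 3 counts. Mates of a pair can be counted separately, so such counts, here and below, can stand for fewer fragments. Its log2 change in Notch1f/f was 4.21 (SE 0.76, adjusted p = 0.0291; at most 0.273 over the settings tried), and its log2 difference in DNMAML was 3.32 (SE 0.74, adjusted p = 0.175). Cdt1, the loading factor that is destroyed when S phase begins, had 3.98, 9.30 and 10.7 CPM in Notch1f/f, 2.97, 8.89 and 2.48 CPM in DNMAML, and 2.18, 2.05 and 2.45 CPM in WT. DNMAML replicate 2 stood well above replicates 1 and 3, which were close to WT. The log2 difference of Cdt1 was 1.84 (SE 0.55) in Notch1f/f and 1.09 (SE 0.54) in DNMAML, and neither passed.

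Within the Mcm2 to Mcm7 ring the differences were uneven. Mcm3 was at 53.1, 94.2 and 82.7 CPM in Notch1f/f, 75.8, 93 and 72.3 CPM in DNMAML, and 64.5, 50.5 and 56.7 CPM in WT. DNMAML libraries were all above WT, whereas Notch1f/f replicate 1 lay inside the WT range. Mcm6 had 48.0, 89.3 and 86.1 CPM in Notch1f/f, 58.0, 74.9 and 57.1 CPM in DNMAML, and 49.6, 57.2 and 59.0 CPM in WT, with overlap in both comparisons. The widest differences in the ring were those of Mcm5, at 10.5, 38.7 and 31.8 CPM in Notch1f/f, 26.6, 33.6 and 24.6 CPM in DNMAML, and 12.5, 9.87 and 11.8 CPM in WT. Its log2 difference was 1.24 (SE 0.39) in Notch1f/f and 1.31 (SE 0.39) in DNMAML, and 1.30 (SE 0.19, adjusted p = 0.00958) with the replicate block in DNMAML. Mcm2 differed by 0.90 (SE 0.26) and 0.96 (SE 0.26) in Notch1f/f and DNMAML, and by 0.92 (SE 0.18, adjusted p = 0.0388) with the replicate block in DNMAML. Mcm7 differed by 0.62 and 0.59, Mcm3 by 0.42 and 0.49, Mcm6 by 0.43 and 0.20, and Mcm4 by 0.01 and 0.16. Of the origin recognition subunits, Orc1 differed by 0.41 (SE 0.69) and -0.16 (SE 0.69) and Orc6 by 0.27 (SE 0.27) and 0.39 (SE 0.27), and neither passed. Every DNMAML library was above every WT library for Orc6.

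Genes of the ring can be compared with each other per length of their exons. On the TPM scale (abundance of transcripts relative to all genes, computed from the counts and exon lengths), Mcm3 had the highest mean level of the 6 in each genotype, at 79.5 TPM in Notch1f/f, 82.7 in DNMAML and 57.1 in WT. The lowest was Mcm2 in Notch1f/f (21 TPM) and DNMAML (21.8 TPM), and Mcm5 in WT (10.7 TPM). The highest mean was thus 3.78 times the lowest in Notch1f/f, 3.78 times in DNMAML and 5.35 times in WT, although the subunits are joined in equal number in the ring. This spread between subunits was not tested.

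The genes that activate the helicase differed in their mean WT level, with Mcm10 the lowest and Gins4 the highest of them. Mcm10, which helps the helicase start to unwind, was at 0.537, 4.83 and 2.59 CPM in Notch1f/f, 3.05, 3.99 and 2.56 CPM in DNMAML, and 0.104, 0.256 and 0.204 CPM in WT. No library of either genotype overlapped WT, where Mcm10 rested on 2, 4 and 4 counts. Its log2 difference was 3.79 (SE 0.84, adjusted p = 0.0602) in Notch1f/f and 4.06 (SE 0.85, adjusted p = 0.17) in DNMAML, or 4.07 (SE 0.65, adjusted p = 0.0139) with the replicate block. Gins4, a subunit of the GINS complex, was at 19.1, 18.6 and 24.9 CPM in Notch1f/f, 20, 16.4 and 22.5 CPM in DNMAML, and 19.9, 20.2 and 22.6 CPM in WT. All 3 genotypes overlapped, with log2 differences of -0.01 (SE 0.19) and -0.09 (SE 0.19) in Notch1f/f and DNMAML. Gins3 was at 4.48, 3.37 and 5.30 CPM in Notch1f/f, 4.05, 4.99 and 6.36 CPM in DNMAML, and 6.13, 7.18 and 3.11 CPM in WT, and it too overlapped. Cdc45, Gins1 and Gins2 differed by 0.97, 0.70 and 1.70 in Notch1f/f and by 1.02, 0.87 and 2.20 in DNMAML, and none of them passed. Gins1 in DNMAML turned to -0.22 with limma-voom; its DNMAML libraries were at 1.52, 4.99 and 0.146 CPM. Gins2 shares 67.3% of its exon bases with Gse1 on the opposite strand, and reads there could be assigned to neither gene, so its level is uncertain.

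Of the polymerases, the catalytic subunit of the leading strand enzyme stood apart. Pole (ENSMUSG00000007080, chromosome 5, 110434172 to 110485340, GRCm39), which encodes the catalytic subunit of polymerase epsilon, was at 4.43, 15.0 and 13.4 CPM in Notch1f/f, 15.0, 14.4 and 7.53 CPM in DNMAML, and 2.29, 1.09 and 1.53 CPM in WT. Its values in both genotypes were all above WT. The log2 change of Pole was 2.73 (SE 0.50, adjusted p = 0.0297; at most 0.247 over the settings tried) in Notch1f/f, and its log2 difference was 2.90 (SE 0.50, adjusted p = 0.0965) in DNMAML. Pold1, the catalytic subunit of polymerase delta, had 26.4, 32.9 and 33.9 CPM in Notch1f/f, 18, 28.8 and 17.6 CPM in DNMAML, and 22.8, 22.2 and 15.4 CPM in WT. Notch1f/f libraries were all above WT and DNMAML libraries were not, with log2 differences of 0.63 (SE 0.23) and 0.09 (SE 0.23) that did not pass. Pola1, the catalytic subunit of polymerase alpha, which starts each new strand with primase, was at 20.5, 28.8 and 21.1 CPM in Notch1f/f, 22.7, 24.7 and 17.9 CPM in DNMAML, and 20.5, 16.3 and 14.2 CPM in WT. The primase subunits Prim1 and Prim2 differed by 0.74 and 0.95 in Notch1f/f and by 0.66 and 0.48 in DNMAML, and did not pass.

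The sliding clamp and the genes of the lagging strand differed least, with a median log2 difference of 0.11 in Notch1f/f and 0.19 in DNMAML over 7 genes, 0 of which passed. Pcna, the clamp that tethers the polymerases, was at 32.0, 54.5 and 53.9 CPM in Notch1f/f, 45.3, 42.5 and 52.6 CPM in DNMAML, and 41.5, 34.4 and 53.8 CPM in WT. The 3 genotypes overlapped, and the log2 difference was 0.11 (SE 0.22) in each comparison. Pcna shares 20.8% of its exon bases with AV099323 on the opposite strand. Lig1, the ligase that joins Okazaki fragments, was at 16.9, 39.2 and 21.3 CPM in Notch1f/f, 16.0, 24 and 20.9 CPM in DNMAML, and 14.4, 13.3 and 14.7 CPM in WT. All libraries of both genotypes exceeded WT for Lig1, with log2 differences of 0.87 (SE 0.29) and 0.52 (SE 0.29) that did not pass. The clamp loader genes Rfc3, Rfc4 and Rfc5 and the single-strand binding gene Rpa2 differed by -0.04 to 0.39 in Notch1f/f and by -0.08 to 0.29 in DNMAML. Fen1, the flap endonuclease, was low in each library (mean 0.462 CPM), and 84.2% of its exon bases are shared with genes on the opposite strand, so its difference of 1.86 (SE 1.29) in DNMAML is uncertain.

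Ribonucleotide reductase, the enzyme that makes deoxyribonucleotides, showed a contrast between its subunits. Rrm2 (ENSMUSG00000020649, chromosome 12, 24758240 to 24764145, GRCm39), the small subunit made in S phase, was at 2.24, 9.21 and 8.79 CPM in Notch1f/f, 8.34, 7.69 and 6.25 CPM in DNMAML, and 1.14, 0.897 and 0.816 CPM in WT. Its libraries did not overlap WT in either genotype. The log2 change of Rrm2 was 2.82 (SE 0.53, adjusted p = 0.0336; at most 0.255 over the settings tried) in Notch1f/f and its log2 difference was 2.95 (SE 0.53, adjusted p = 0.123) in DNMAML. Rrm1, the large subunit, had 41.4, 56.1 and 49.6 CPM in Notch1f/f, 47.1, 43.2 and 47.2 CPM in DNMAML, and 44.2, 41.9 and 45.3 CPM in WT, with log2 differences of 0.16 (SE 0.14) and 0.07 (SE 0.14). Per length, the mean level of Rrm2 was 9.31 TPM beside 17.4 TPM of Rrm1 in Notch1f/f, 10.3 beside 16.0 TPM in DNMAML, and 1.29 beside 14.9 TPM in WT. Tyms, which makes thymidylate, was at 9.67, 22.1 and 11.8 CPM in Notch1f/f, 10.3, 14.4 and 11 CPM in DNMAML, and 4.78, 8.46 and 8.36 CPM in WT. Each library of both genotypes was above WT for Tyms, though its log2 differences of 1.01 (SE 0.35) and 0.72 (SE 0.35) did not pass. Thymidine kinase Tk1, the dUTPase Dut and the uracil glycosylase Ung differed by 0.46, 0.38 and 1.16 in Notch1f/f and by 0.37, 0.69 and 0.51 in DNMAML.

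Genes that restore chromatin behind the fork also divided. Uhrf1, which brings the maintenance DNA methyltransferase to newly copied DNA, was at 3.67, 27.6 and 16.6 CPM in Notch1f/f, 8.62, 14.4 and 10.9 CPM in DNMAML, and 2.91, 1.67 and 1.02 CPM in WT. Notch1f/f replicate 1 was only a little above the highest WT library, and the other 5 libraries of both genotypes were far above it. The log2 difference was 3.09 (SE 0.67, adjusted p = 0.0663) in Notch1f/f and 2.59 (SE 0.66, adjusted p = 0.32) in DNMAML, or 2.65 (SE 0.40, adjusted p = 0.0109) with the replicate block. Slbp, which binds histone mRNA, was at 19.7, 30.7 and 23.2 CPM in Notch1f/f, 24.9, 25.8 and 27.7 CPM in DNMAML, and 19.1, 15.6 and 25.1 CPM in WT, and both comparisons overlapped. The histone chaperone subunits Chaf1a and Chaf1b differed by 0.93 and 2.06 in Notch1f/f and by 0.96 and 1.24 in DNMAML without passing. Chaf1a shares 52.5% of its exon bases with Ubxn6 on the opposite strand.

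S phase control and repair was the group with the widest differences, with medians of 4.26 in Notch1f/f and 3.76 in DNMAML over 6 genes. In all 6, every library of both genotypes was above every WT library. Dtl (ENSMUSG00000037474, chromosome 1, 191269468 to 191307656, GRCm39), the substrate receptor of the ligase that destroys Cdt1 during S phase, was at 1.66, 12.1 and 5.75 CPM in Notch1f/f, 3.37, 8.54 and 2.27 CPM in DNMAML, and 0.052, 0.256 and 0.408 CPM in WT. In WT these values rested on 1, 4 and 8 counts. The log2 change of Dtl was 4.74 (SE 0.92, adjusted p = 0.0414; at most 0.388 over the settings tried) in Notch1f/f, and its log2 difference was 4.27 (SE 0.91, adjusted p = 0.17) in DNMAML. E2f1, the transcription factor that drives S phase genes, was at 1.25, 13.7 and 4.62 CPM in Notch1f/f, 7.22, 6.84 and 3.22 CPM in DNMAML, and 0.26, 0 and 0 CPM in WT. WT replicate 1 held 5 counts of E2f1 and the others held 0. Its fitted log2 difference was 6.09 (SE 1.21, adjusted p = 0.0506) in Notch1f/f and 5.90 (SE 1.20, adjusted p = 0.17) in DNMAML, sizes that rest on those few counts. E2f8, a repressor in the same family, differed by 4.91 (SE 1.29) and 4.66 (SE 1.29), with 0, 6 and 0 counts in WT. It shares 20.7% of its exon bases with Gm2788 on the opposite strand.

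Clspn, the adaptor through which stalled forks activate Chk1, was at 1.79, 14.1 and 10 CPM in Notch1f/f, 5.29, 6.39 and 6.21 CPM in DNMAML, and 1.20, 0.449 and 0.204 CPM in WT. The log2 difference of Clspn was 3.79 (SE 0.78, adjusted p = 0.0506) in Notch1f/f and 3.26 (SE 0.77, adjusted p = 0.206) in DNMAML, where the replicate block gave 3.45 (SE 0.58, adjusted p = 0.0166). Brca1, which protects forks and repairs breaks by recombination, had 3.00, 13.8 and 8.00 CPM in Notch1f/f, 7.22, 7.09 and 5.99 CPM in DNMAML, and 0.624, 2.05 and 2.14 CPM in WT. It differed by 2.37 (SE 0.59) and 2.08 (SE 0.58) in Notch1f/f and DNMAML, and by 2.19 (SE 0.46, adjusted p = 0.0446) with the replicate block in DNMAML. The exonuclease Exo1 differed by 2.13 (SE 0.79) and 1.95 (SE 0.78).

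**Figure D3:**
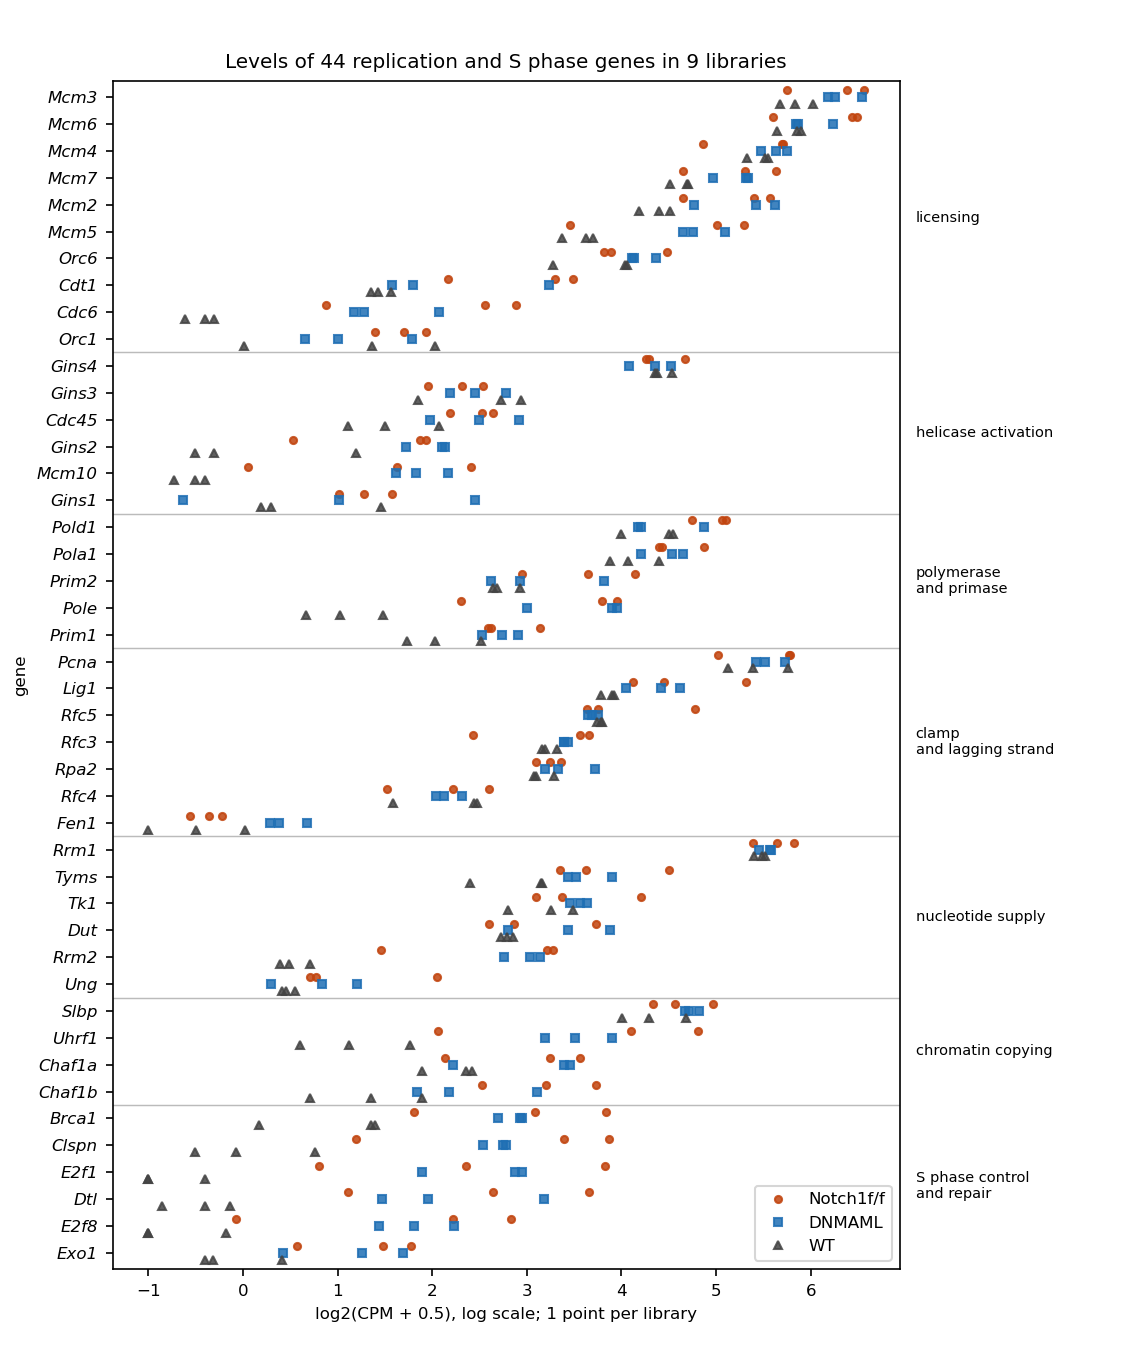
Level of each of the 44 genes as log2(CPM + 0.5) in the 9 libraries, 1 point per library, by role and in order of mean level. Points of WT lie left of all others for Cdc6, Mcm10, Pole, Rrm2, Uhrf1 and the 6 control and repair genes. They also do so for Mcm2, Cdt1, Prim1, Tyms and Lig1. For Gins4, Pcna and Rrm1 they lie among the others.

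Promoter sequences are shown for the 5 genes with the lowest p in Notch1f/f against WT that the RefSeq promoter table holds, and for Rfc4, the gene in that table with the highest p, so that both ends of the order by p can be read. Of these, Cdc6, Rrm2 and Dtl passed, and E2f1, Clspn and Rfc4 did not. Each window is the one listed first for its gene. It runs from 250 bases before to 50 bases after that start, 5′ to 3′ in the direction of transcription. The build is GRCm38.p6, which is not the build of the count table. The windows are Cdc6 (chr11:98907901-98908200, plus strand), Rrm2 (chr12:24708004-24708303, plus strand), Dtl (chr1:191575495-191575794, minus strand), E2f1 (chr2:154569377-154569676, minus strand), Clspn (chr4:126556730-126557029, plus strand) and Rfc4 (chr16:23127681-23127980, minus strand). Capitals mark an E2F site spelled TTTCCCGC, TTTCGCGC, TTTGCCGC or TTTGGCGC, or its reverse complement on the other strand.
Cdc6: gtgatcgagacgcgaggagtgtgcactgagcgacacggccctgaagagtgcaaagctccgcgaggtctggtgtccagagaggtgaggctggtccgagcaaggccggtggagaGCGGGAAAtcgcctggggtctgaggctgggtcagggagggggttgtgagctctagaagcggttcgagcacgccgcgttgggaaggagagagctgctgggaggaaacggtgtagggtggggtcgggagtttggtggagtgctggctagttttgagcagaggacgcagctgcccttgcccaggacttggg
Rrm2: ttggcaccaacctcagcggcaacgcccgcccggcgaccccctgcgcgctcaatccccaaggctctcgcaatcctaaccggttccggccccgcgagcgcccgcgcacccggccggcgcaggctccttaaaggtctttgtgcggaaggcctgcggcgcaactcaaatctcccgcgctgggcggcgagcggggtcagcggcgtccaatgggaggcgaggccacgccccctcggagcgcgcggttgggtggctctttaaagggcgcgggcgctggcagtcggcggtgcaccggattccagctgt
Dtl: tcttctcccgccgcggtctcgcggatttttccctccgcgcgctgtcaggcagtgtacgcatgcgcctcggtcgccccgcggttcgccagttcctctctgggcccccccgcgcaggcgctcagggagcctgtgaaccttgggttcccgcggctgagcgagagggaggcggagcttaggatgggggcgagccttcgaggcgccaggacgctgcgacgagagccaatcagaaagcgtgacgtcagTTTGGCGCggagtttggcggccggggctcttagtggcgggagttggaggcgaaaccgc
E2f1: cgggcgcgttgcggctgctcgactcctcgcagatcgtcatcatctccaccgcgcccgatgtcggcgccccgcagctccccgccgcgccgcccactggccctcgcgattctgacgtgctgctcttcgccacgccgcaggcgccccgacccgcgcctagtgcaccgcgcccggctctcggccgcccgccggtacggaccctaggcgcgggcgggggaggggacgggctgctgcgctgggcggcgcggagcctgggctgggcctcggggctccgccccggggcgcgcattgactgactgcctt
Clspn: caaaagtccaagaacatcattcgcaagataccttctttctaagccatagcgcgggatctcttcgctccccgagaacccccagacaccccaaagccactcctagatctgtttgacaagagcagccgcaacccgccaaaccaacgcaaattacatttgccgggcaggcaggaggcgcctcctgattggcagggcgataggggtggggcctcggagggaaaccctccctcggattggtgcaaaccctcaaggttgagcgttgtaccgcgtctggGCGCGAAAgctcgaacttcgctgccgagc
Rfc4: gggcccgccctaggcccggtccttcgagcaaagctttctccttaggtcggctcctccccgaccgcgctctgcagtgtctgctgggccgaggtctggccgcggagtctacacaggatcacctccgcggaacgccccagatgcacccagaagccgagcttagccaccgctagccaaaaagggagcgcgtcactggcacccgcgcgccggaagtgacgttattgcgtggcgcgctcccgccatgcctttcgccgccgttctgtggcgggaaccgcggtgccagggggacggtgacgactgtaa

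An E2F spelling stood at 138 bases before the start of Cdc6, at 8 bases before that of Dtl and at base 21 after that of Clspn. The printed windows of Rrm2, E2f1 and Rfc4 held none of the 4 spellings. Part of the E2f1 window reads as coding sequence of E2f1, so the bases before its first exon were not searched. Other starts of these genes were not searched, so a spelling there would be missed. The promoter table held 37 of the 44 genes; Mcm4, Gins1, Gins2, Gins4, Pole, Prim2 and Exo1 had no entry. Taking the window listed first for each gene, 13 of 37 (35.1%) held an E2F spelling on either strand, against 2.32% of the 27025 promoters in the table. The letters CCAAT were in 24 of the 37 (64.9%) against 37.9% of all promoters, and TTTGAA, the cell cycle homology region of mitotic genes, in 5 (13.5%) against 18.1%. The motifs were counted separately and may share bases. Within the 37, genes with an E2F spelling had a median log2 difference of 0.62 in Notch1f/f and 0.49 in DNMAML, and the 24 without had 0.88 and 0.70. E2f1 counts among the 24 only by its window inside the gene. Such a match is a string of letters in a window, not a binding site that was measured. A window without a match does not show that the gene lacks an E2F site at another start or in another spelling.

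The size of a difference went with the level of the gene. Of the 44, 17 had a mean of at least 10 CPM over the 9 libraries, and their median log2 difference was 0.43 in Notch1f/f and 0.37 in DNMAML. The other 27 had medians of 1.70 in Notch1f/f and 1.24 in DNMAML. Over all genes tested, medians at these levels were within 0.01 of 0 for genes of 10 CPM or more, and 0.08 and 0.03 for the rest. A log2 difference of 1 or more was reached by 17 of the 44 in Notch1f/f and by 17 in DNMAML, against 9.4% and 6.73% of all genes. The 4 genes that rose in Notch1f/f all lay below 10 CPM, where WT libraries hold few counts and the size of a fold is poorly fixed.

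**Figure D4:**
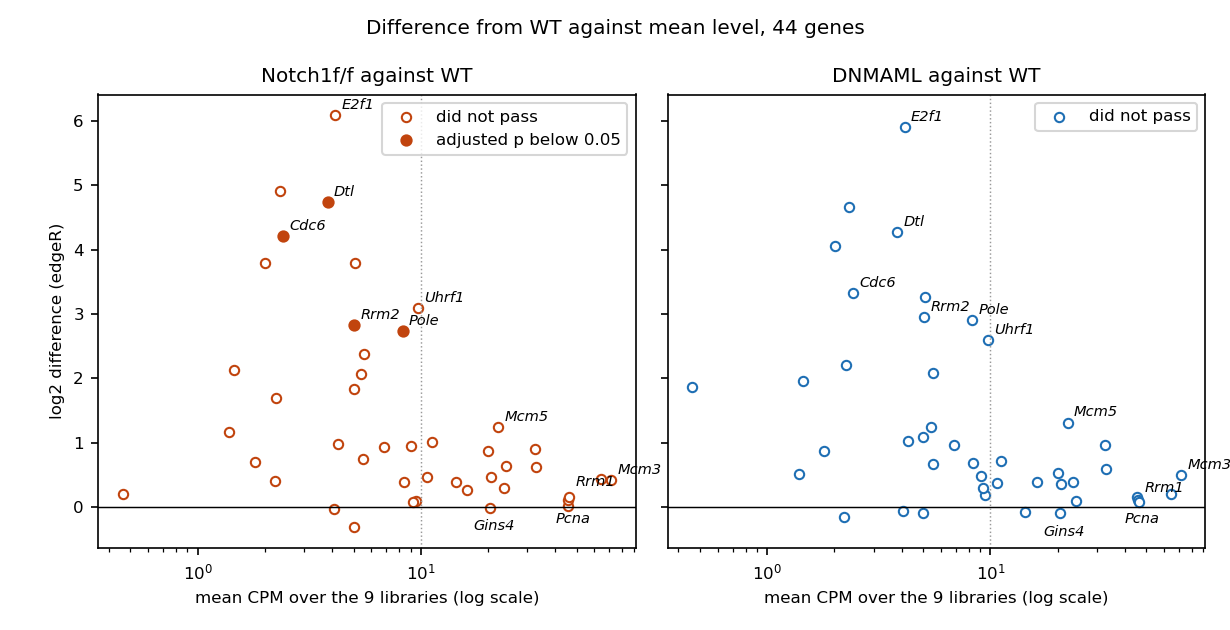
Log2 difference from WT against mean CPM over the 9 libraries (log axis), 1 point per gene; the dotted line marks 10 CPM. Genes right of the line lie between -0.09 and 1.31, and the differences above 2 all lie left of it.

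Further genes of the same pathway gave smaller differences. Of 50 other replication genes, 0 passed in either comparison with WT, 37 were above 0 in Notch1f/f (median log2 difference 0.38) and 39 in DNMAML (median 0.19). With the replicate block in DNMAML, Hells, a remodeller of newly copied chromatin, rose by 1.93 (SE 0.38, adjusted p = 0.0334) and was the only one of them to pass. Of 29 regulators of the step from G1 to S, Ccnd1 and Ccna2 rose in Notch1f/f and 0 passed in DNMAML without the block. With it both rose in DNMAML, Ccnd1 by 1.26 (SE 0.11, adjusted p = 0.00065) and Ccna2 by 3.12 (SE 0.28, adjusted p = 0.000655). Ccnd1, the cyclin that begins phosphorylation of the retinoblastoma protein, was at 250, 435 and 349 CPM in Notch1f/f, 478, 388 and 358 CPM in DNMAML, and 176, 149 and 185 CPM in WT. Cdkn1a, an inhibitor of cyclin-dependent kinases, was also above WT in each library of both genotypes, at 197, 269 and 130 CPM in Notch1f/f, 239, 119 and 137 CPM in DNMAML, and 92.9, 72.0 and 103 CPM in WT, and did not pass. Among 23 checkpoint and repair genes 0 passed in either comparison, with medians of 0.73 and 0.37; Rad51ap1, Parpbp and Cip2a rose in DNMAML with the replicate block.

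Mitosis genes differed more than the replication genes. The 20 mitosis genes summed to 95.5, 457 and 576 CPM in Notch1f/f, 404, 430 and 352 CPM in DNMAML, and 35.1, 37.6 and 29.5 CPM in WT, with median log2 differences of 3.27 and 3.45. All 20 were higher in both, 7 rose in Notch1f/f, and 1, Aspm, rose in DNMAML without the block. With the replicate block 18 of the 20 rose in DNMAML, among them Mki67 by 4.31 (SE 0.12, adjusted p = 1.05e-07). In Notch1f/f replicate 1 the mitosis genes were above WT while the 44 replication genes summed to the WT level. Even so, 22 of the 44 were above every WT library in that replicate.

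Between the 2 genotypes, Notch1f/f against DNMAML, 0 of the 44 passed (edgeR quasi-likelihood test; 0.0103% of all genes rose), 1 had an unadjusted p below 0.05 (6.37% of all genes), and DESeq2 called 0 (0.293%). With the replicate block in these 6 libraries 0 passed (0.0163% of all genes), and without Notch1f/f replicate 1 also 0 (0.0196%). A log2 difference of 1 or more was reached by 0 of the 44, against 5.54% of all genes. The median log2 difference was 0.08, with 25 of 44 above 0 and a range from -1.66 for Fen1 to 0.89 (SE 0.64) for Cdc6. In 0 of the 44 was every Notch1f/f library above every DNMAML library, against 4.4% of all genes, and Fen1 was the only one with every library below, against 5.32% of all genes.

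Of 22 leukocyte markers 17 were tested, 15 of them were higher in Notch1f/f and 15 in DNMAML, and 0 passed without the block. Their median log2 difference was 0.98 in Notch1f/f and 2.24 in DNMAML, above the 0.81 and 0.68 of the 44 replication genes. Their summed level was 162 to 360 CPM in Notch1f/f, 391 to 744 CPM in DNMAML and 128 to 836 CPM in WT. Lyz2, which alveolar epithelium also expresses, made up most of it; without Lyz2 the sum was 89.8, 54.0 and 62.6 CPM in Notch1f/f, 231, 224 and 27.6 CPM in DNMAML, and 76.9, 28.1 and 23.8 CPM in WT. Ptprc, which encodes CD45, was at 14.5, 4.96 and 1.58 CPM in Notch1f/f, 28.0, 26.7 and 1.39 CPM in DNMAML, and 4.99, 2.95 and 0.408 CPM in WT. The T cell gene Cd3d was at 0 counts in Notch1f/f replicates 1 and 2, DNMAML replicate 3 and WT replicates 2 and 3. In DNMAML replicates 1 and 2 leukocyte markers other than Lyz2 were high, and their part in the result was not tested. The 10 endothelial markers had median log2 differences of -0.05 in Notch1f/f and 0.01 in DNMAML, and 0 passed without the block. Every library was below WT for Vwf (-0.70 and -1.03) and Tek (-0.46 and -0.42) in both genotypes, and for Kdr in Notch1f/f. Every library was above WT for Emcn in Notch1f/f (0.78) and Cldn5 in DNMAML (0.20). With the block Vwf fell in DNMAML (-1.04, SE 0.13, adjusted p = 0.00621). Markers of mural cells had a median log2 difference of -0.91 in Notch1f/f, where Pdgfrb, Cspg4, Notch3 and Higd1b of 10 fell, and of -0.31 in DNMAML. Of the 10, 3 were above 0 in Notch1f/f and 4 in DNMAML. Among them was Rgs5, with every library above WT in both genotypes (0.60 and 0.89). With the block Rgs5 rose in DNMAML by 0.88 (SE 0.16, adjusted p = 0.0253). Markers of epithelium had medians of -0.84 and -0.24, and 12 housekeeping genes of 0.15 and 0.05, with 0 called in either without the block. With the block the epithelial marker Hopx fell in Notch1f/f (-1.42, SE 0.19, adjusted p = 0.0325). The 8 fibroblast markers had medians of -0.74 in Notch1f/f and 0.43 in DNMAML, with 0 called without the block. With it Dpt rose in DNMAML by 0.69 (SE 0.14, adjusted p = 0.0461).

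Within sexes, female libraries gave a median log2 difference of the 44 genes of 0.95 for Notch1f/f (2 against 2 libraries) and 1.01 for DNMAML (1 against 2). Male libraries gave 0.16 for Notch1f/f (1 against 1) and 0.47 for DNMAML (2 against 1). These medians were all above 0. In Notch1f/f 43 of the 44 genes were above 0 in females and 28 in males, and in DNMAML 38 in each sex. For Cdc6, Pole, Rrm2 and Dtl the smallest within-sex difference was 0.97, in males of Notch1f/f. Those genes were picked by their rise in these same libraries, so that value is no separate support. These values are on a log2(CPM + 0.5) scale and have no test. With a term for sex in the fit, 6 of the 44 rose in Notch1f/f (0.801% of all genes) and 2, Pole and Rrm2, in DNMAML (0.154%).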

How the data were processed

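RNA from sorted lung endothelial cells was depleted of ribosomal RNA and made into strand-specific libraries in 1 batch, per the labels' protocols. The authors deposited raw counts of reads for each gene, as whole numbers. Per the file headers, featureCounts 2.0.1 made them with the gene models of Ensembl release 107 on GRCm39. STAR 2.7 and the build mm10 are named in the submitters' processing notes. No option for strand, read pairs or reads over several genes stands in the command line, per the file headers, so members that share exons with another gene are uncertain, and mates of a pair can be counted separately: 76.6% to 89.0% of counts from 1 to 199 in a library were even. Pcna and Tyms have named pseudogene copies.

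Symbols came from a GENCODE annotation, which named 52073 of 56748 identifiers. Genes were kept by filterByExpr with genotype as group (19486 genes). Tests used edgeR 4.0.16 in R 4.3.3: TMM scaling and a robust quasi-likelihood fit of genotype alone over the 9 libraries, with p-values adjusted by Benjamini-Hochberg over all genes and a threshold of 0.05. The SE is the absolute log2 difference divided by the square root of F, so it restates the test. CPM uses the TMM-scaled library size; TPM uses the deposited exon lengths. The fit was also run on simulated counts, with an outcome that is not given here. Alternatives were DESeq2 1.42.0, limma-voom (limma 3.58.1), RLE scaling, no filter, 6 libraries only, the replicate block, a sex term (male at 10 CPM or more of Y-linked genes), and leaving out each library.

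The labels do not say what a replicate number marks. Deviations from the group mean of same-numbered DNMAML and WT libraries correlated at 0.238, 0.344 and 0.179 across genes. Differently numbered DNMAML and WT libraries gave -0.27 to 0.0774. The number was therefore taken to pair them, a choice made from these data. Correlations as high also occurred between differently numbered libraries. They reached 0.352 for Notch1f/f replicate 1 with WT replicate 2, and 0.306 for Notch1f/f replicate 1 with DNMAML replicate 2. Same-numbered Notch1f/f libraries gave -0.13 to 0.191 with WT and -0.12 to 0.212 with DNMAML and were not taken as paired. Members and lists were chosen with earlier results of these data known. Members are named with values if they passed in any comparison or had one of the 2 highest mean levels of their role; E2f1 and Rfc4 follow from the rule for promoters (lowest and highest p), and the other members with values, Cdt1, Mcm5 and Mcm10 among them, were added after their values were seen.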

Additional observations from a re-analysis of the deposited data

How the results depend on the processing

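The counts of replication and S phase genes that rose depended on the processing, and in no setting tried was any of the 44 called lower. Counts over all genes tested stand in parentheses. For DNMAML against WT, 0 rose in the fit reported (1 of 19486). DESeq2 gave 10 (174 of 20190), no filter on low counts 12 (361 of 33247) and a sex term 2 (30 of 19486). The 6 libraries alone gave 5 (65 of 18117) and the replicate block in these 6 gave 12 (212 of 18117). Limma-voom (0), RLE scaling (1) and the replicate block in all 9 libraries (2) gave 0 of the 44. For Notch1f/f against WT, 4 rose in the fit reported (100 of 19486). DESeq2 gave 14 (541 of 20811), limma-voom 0 (25 of 19486) and no filter 16 (664 of 33247). The 6 libraries alone gave 2 (91 of 18124) and the replicate block in these 6 gave 1 (50 of 18124), with 42 of the 44 tested in each. RLE scaling gave 4 (103), the block in all 9 libraries 3 (130) and the sex term 6 (156). Leaving out 1 library gave 0 to 9 for DNMAML, the highest without Notch1f/f replicate 1 (84 of 20432). For Notch1f/f it gave 0 to 15, the highest without Notch1f/f replicate 1 (369 of 20432). There 0 rose without WT replicate 1 (8 of 20719), 2 (11 of 20568) or 3 (23 of 20703), or without Notch1f/f replicate 2 (25 of 20482). Notch1f/f against DNMAML stayed at 0 in each setting. The cause of these shifts was not tested. The median log2 difference of the 44 ran from 0.47 to 0.79 in DNMAML and from 0.52 to 0.90 in Notch1f/f. Of the 44 genes, 8 turned direction in some setting in DNMAML and 9 in Notch1f/f, none of which passed in the fit reported. Most lay near 0, but Gins1 was reported at 0.87 in DNMAML, and Orc1 at 0.41, Rfc5 at 0.39 and Dut at 0.38 in Notch1f/f. In DNMAML, leaving out 1 library gave log2 differences of -0.52 to 1.68 for Gins1, -0.65 to 0.51 for Orc1, -0.33 to 0.10 for Rfc4, -0.37 to 0.16 for Gins3, -0.20 to 0.03 for Gins4, -0.02 to 0.31 for Pcna and -0.16 to 0.22 for Pold1. In Notch1f/f it gave -0.05 to 1.08 for Orc1, -0.39 to 1.35 for Fen1, -0.08 to 0.59 for Rfc5, -0.06 to 0.60 for Dut, -0.13 to 0.40 for Rfc3, -0.34 to 0.22 for Rfc4, -0.13 to 0.23 for Mcm4, -0.03 to 0.32 for Pcna and -0.15 to 0.08 for Gins4. With limma-voom, Gins1 was at -0.22, Orc1 at 0.12, Gins3 at 0.01 and Rfc4 at 0.01 in DNMAML, and Mcm4 at -0.06, Rfc3 at -0.04 and Rfc4 at 0.00 in Notch1f/f. The replicate block put Orc1 in DNMAML at 0.02 in all 9 libraries and 0.04 in 6, Mcm4 in Notch1f/f at -0.01 and -0.04, and Rfc3 in Notch1f/f at -0.01 in 6. With the sex term Rfc5 in DNMAML was at 0.00 and Mcm4 in Notch1f/f at -0.02, and without a filter Gins4 in Notch1f/f was at 0.00. Over all genes, higher calls ran from 0 with limma-voom to 361 without a filter in DNMAML, beside 1 in the fit reported, and from 8 to 664 in Notch1f/f, beside 100; lower calls ran from 0 to 99 in DNMAML, beside 0, and from 5 to 751 in Notch1f/f, beside 63. For Notch1f/f against DNMAML they ran from 0 to 176 higher and from 1 to 520 lower, beside 2 and 2. Members with 0 to 8 counts per WT library limit the precision of their folds.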
